A study of Mus musculus with 16 samples.

Results

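The comparison described here is a knockdown of Bcl6b with short interfering RNA (siRNA) against a negative control siRNA in cultured mouse spermatogonial stem cells. It rests on 7 of the 16 arrays of the study: replicates 2 to 4 of Bcl6b knockdown and replicates 1 to 4 of the negative control. Bcl6b knockdown replicate 1 was left out because its signal was weighted towards the 3' ends of transcripts. Its values are given for some genes, as a check only. The other arrays belonged to an Etv5 knockdown and a Pou3f1 knockdown, with 4 arrays each. All 4 groups were C57BL/6 germ cell cultures started from a fraction enriched for the surface protein Thy1, kept without serum in a defined medium with 20 ng/ml of the growth factor GDNF, 150 ng/ml of its co-receptor GFRA1 and 1 ng/ml FGF2, and exposed to siRNA for 30 h. The knockdown was transient, and the siRNA sequences are not given in the sources used here. RNA was hybridised to Affymetrix mouse whole-genome arrays, which report an intensity for each probe set, a group of short probes for 1 transcript. No label tells if the replicates of a group were grown as separate cultures; p-values therefore measure the spread between these arrays, which may be technical.

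Bcl6b, also called BAZF, encodes a transcription factor with a BTB domain and zinc fingers. It is a close relative of the repressor BCL6, and in mouse both are known to bind the same kind of DNA sequence, which overlaps with sites of STAT factors. In cultured mouse spermatogonial stem cells, the germline cells that renew themselves and feed sperm production, GDNF signalling through the receptor RET raises Bcl6b and Etv5 expression. Bcl6b is known as a gene on which the maintenance of these stem cells depends in culture and after transplantation.

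The arrays in the comparison were alike in quality. The log2 difference between the 3' and the 5' probe set of Gapdh ran from -0.53 to -0.46 on the 3 Bcl6b knockdown arrays used, was 1.03 on Bcl6b knockdown replicate 1, and ran from -0.51 to -0.45 on the 4 arrays of the control. Median intensity over all probe sets lay between 16.8 and 17.3 in Bcl6b knockdown replicates 2 to 4 and between 15.8 and 16.4 in control, without overlap. Germ cell markers were bright in control. The RNA helicase gene Ddx4, the RNA-binding protein gene Dazl, Zbtb16, Sall4, Gfra1, Id4 and Etv5 lay above at least 88.1% of all probe sets. Ret lay above 81.8%. Fibroblast and feeder markers were bright too, with a median control level of 12.8 (log2 of intensity plus 1) over 29 measured genes. The same median was 10.4 over 21 measured germ cell identity and piRNA genes. The share of RNA from other cells was not measured.

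Bcl6b itself fell. Its intensity was 611, 718 and 791 on Bcl6b knockdown replicates 2 to 4, against 1526, 1440, 1341 and 1504 on control replicates 1 to 4. All 3 knockdown arrays lay below all 4 control arrays, with a log2 difference of -1.05 ± 0.08 (SE; limma, Benjamini-Hochberg adjusted p 1.85e-05). Bcl6b knockdown replicate 1 read 765. The same probe set averaged 706 ± 90.5 in Bcl6b knockdown (SD, n = 3), 686 in Etv5 knockdown, 1590 in Pou3f1 knockdown and 1453 ± 83.1 in control (SD, n = 4). The direct difference between Bcl6b and Etv5 knockdown was 0.05 (adjusted p 0.874). Bcl6, the close relative, differed by 0.13 without passing the test (adjusted p 0.0836). Because these are bulk samples, fewer cells of a type and less RNA per cell cannot be told apart in any value below.

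Across the genome, 600 of 11073 tested genes rose (5.42%) and 1053 fell (9.51%) in Bcl6b knockdown at an adjusted p under 0.05. Each list count in the paragraphs that follow is to be read beside these shares. Averaging the log2 values of all probe sets of a gene ended the call of 33 of 136 named genes and turned 2 round. Changes were small: the median log2 difference was 0.26 among the genes that rose and -0.21 among those that fell, beside -0.04 over all tested genes. A change of at least 2-fold was called for 8 genes, 0.0722% of those tested, of which 7 rose and 1, Bcl6b, fell. Among the 7 were Sgip1 and Epsti1, which passed the filter on dim genes only through the knockdown arrays. Of the 600 rises, 4 lay below the array median on every control array, and for these the filter favoured a rise. The 3 knockdown arrays lay wholly above or below the 4 control arrays for 27.7% of all tested genes, and for 1608 of the 1653 called genes. The division between rises and falls depended on how arrays were scaled to each other. With each array centred on the median of the tested genes, 846 rose and 624 fell, and with each array centred on its median over all probe sets 347 rose and 3929 fell.

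**Figure D1:**
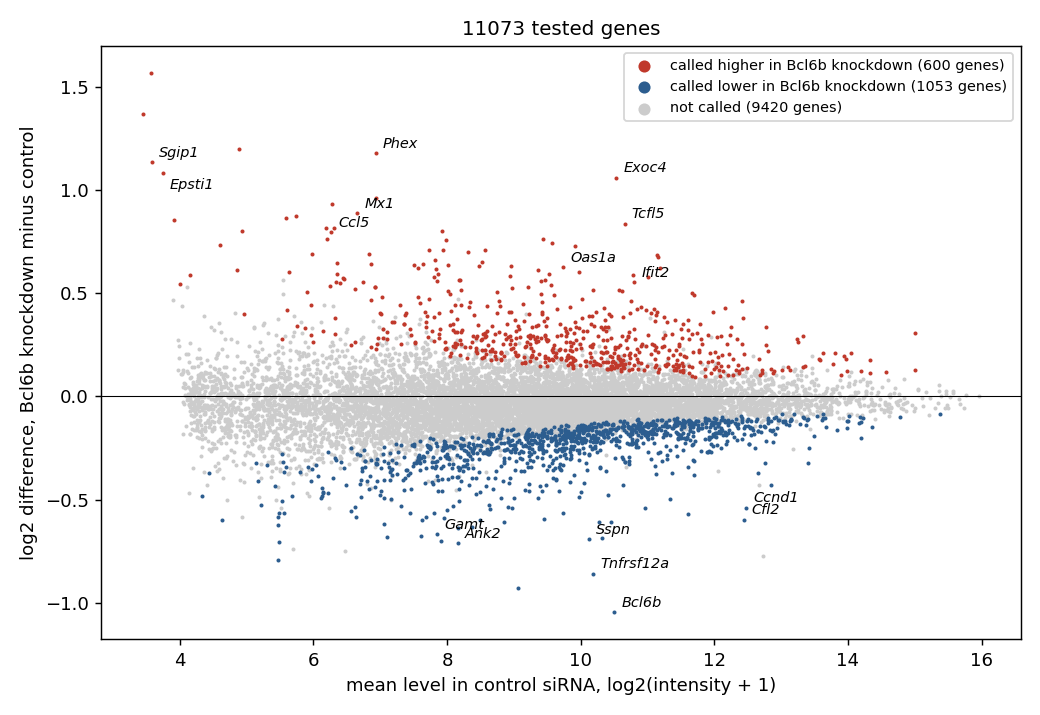
Each point is 1 of the 11073 tested genes, with the mean control level on the x axis (log2 of intensity plus 1) and the log2 difference, Bcl6b knockdown minus control, on the y axis. The 1053 falls form a band below the axis, and Bcl6b has the lowest point at -1.05.

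To find genes whose level also differed from that under other siRNAs, Bcl6b knockdown was set directly against Etv5 and Pou3f1 knockdown. Such a difference does not mean that the other siRNAs left a gene at its control level. Bcl6b itself read 620, 618, 899 and 608 on the Etv5 knockdown arrays and 611, 718 and 791 on Bcl6b knockdown replicates 2 to 4. The contrast with Etv5 knockdown thus sets groups with similar Bcl6b RNA against each other. It can leave out changes that go with low Bcl6b, and a gene that it keeps is not shown to follow Bcl6b. At an adjusted p under 0.05, 4.55% of tested genes differed from Etv5 knockdown and 5.16% from Pou3f1 knockdown. Of the genes called against control, 28 that rose (0.253% of tested genes) and 100 that fell (0.903%) also differed the same way from both other knockdowns. These were 4.67% of all rises and 9.5% of all falls. Among the falls were genes for a cytokine receptor, an actin-severing protein, membrane skeleton proteins, a creatine-synthesis enzyme and a G1 cyclin. Among the rises were the chemokine gene Ccl5 and several interferon-stimulated genes.

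Tnfrsf12a encodes FN14, the receptor for the TNF-family cytokine TWEAK. Its intensity was 638, 646 and 640 on Bcl6b knockdown replicates 2 to 4, against 1209, 1290, 1116 and 1057 on the control arrays. The knockdown arrays were nearly level with each other and all lay below the control arrays, with a log2 difference of -0.86 ± 0.06 (limma adjusted p 1.5e-05). Etv5 knockdown averaged 1147 and Pou3f1 knockdown 950, and Bcl6b knockdown was lower than these by -0.84 and -0.56 on the log2 scale. Replicate 1 of Bcl6b knockdown read 375, and a second probe set of the gene gave -0.88.

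Cfl2 encodes cofilin 2, a protein that severs and depolymerises actin filaments. It read 3554, 3780 and 3781 on the 3 Bcl6b knockdown arrays and 5510, 5710, 5602 and 5584 on the 4 control arrays, a fall of -0.60 ± 0.03 (log2; limma adjusted p 2.69e-06) with no overlap. Etv5 knockdown averaged 5530 and Pou3f1 knockdown 5561, and the direct differences from them were -0.58 and -0.59. A second probe set gave -0.72, and the remaining one, dim at 64.8 in Bcl6b knockdown and 64.4 in control, gave 0.01.

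**Figure D2:**
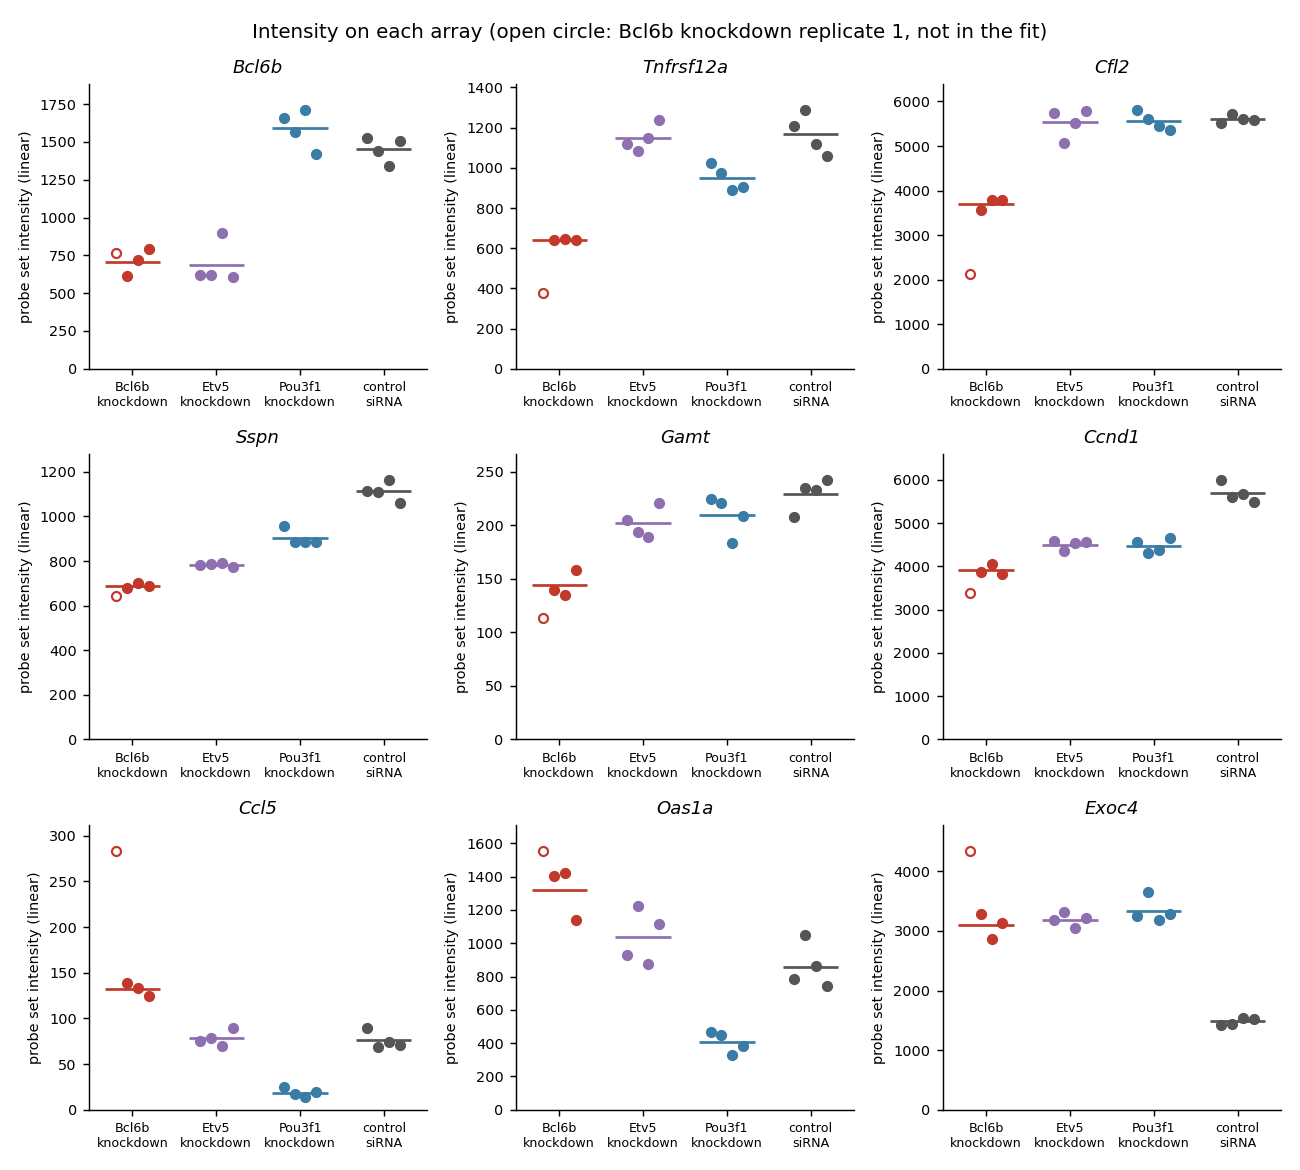
Points give probe set intensity on a linear scale on each array in Bcl6b, Etv5 and Pou3f1 knockdown and in control, for 9 genes, with a line at the group mean (Bcl6b knockdown replicate 1, an open circle, is not in the mean). Tnfrsf12a, Cfl2 and Gamt are low in Bcl6b knockdown, whereas Exoc4 lies above control in all 3 knockdown groups.

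Ank2, Sspn and Itga8 were also lower in Bcl6b knockdown than in control and both other knockdowns. Ank2, which encodes an ankyrin that ties membrane proteins to spectrin, read 158, 185 and 181 in Bcl6b knockdown and 310, 282, 275 and 276 in control (log2 difference -0.71 ± 0.07; limma adjusted p 1.72e-04). Sspn, which encodes sarcospan, a membrane protein of the dystrophin-glycoprotein complex, read 678, 699 and 687 in Bcl6b knockdown and 1116, 1111, 1163 and 1059 in control (-0.69 ± 0.04, adjusted p 6.85e-06). The knockdown arrays of both genes lay below all control arrays. Itga8, which encodes an integrin alpha chain, averaged 85.7 ± 7.0 in Bcl6b knockdown and 131.9 ± 8.8 in control, with a log2 difference of -0.62. On Bcl6b knockdown replicate 1 Ank2 read 190 and Sspn 642, below all control arrays. Itga8 read 139 there, within the control range of 121 to 140. Sspn was also lower in the other knockdowns, at 782 in Etv5 and 903 in Pou3f1 knockdown, and the direct difference was -0.19 from the first (adjusted p 0.0197) and -0.39 from the second. For Ank2 the direct differences were -0.66 and -0.48, and with its probe sets averaged the difference from control was -0.23.

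The other members of the sarcospan complex were looked up after these values were seen. Of 10 tested genes of the dystrophin-glycoprotein complex, Sspn included, 4 fell and 1 rose, where 9.51% of all tested genes fell and 5.42% rose, with a median of -0.20 beside -0.04 for all tested genes. Because the fall of Sspn prompted the search, its part in these counts was fixed beforehand. The falls were Sspn, the sarcoglycan gene Sgcb at -0.44, the dystroglycan gene Dag1 at -0.25 and the utrophin gene Utrn at -0.21. Of these, Sspn, Sgcb and Dag1 also differed from both other knockdowns. The syntrophin gene Sntb2 was higher by 0.24.

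Sequences upstream of the start site were searched on both strands for a form of the BCL6 recognition sequence, the letters TTCCT and GAA with any 1 base between them, in windows of 250 bases from RefSeq on GRCm38.p6. Such a match is a description of the letters and not evidence of binding. A gene was counted if any of its listed start sites held a match, among genes with a listed promoter. A match occurred in 1.54% of 27025 genes, in 1.09% of 9026 tested genes, in 1.84% of 488 genes that rose and in 1.17% of 857 that fell. It occurred in 2.38% of 84 that fell against control and both other knockdowns. Sspn is shown because it holds a match and is among the largest falls. Its window, chr6:145933872-145934121 on the plus strand, belongs to 1 of 2 listed start sites, and the match in capitals ends 136 bases before the start.
Sspn: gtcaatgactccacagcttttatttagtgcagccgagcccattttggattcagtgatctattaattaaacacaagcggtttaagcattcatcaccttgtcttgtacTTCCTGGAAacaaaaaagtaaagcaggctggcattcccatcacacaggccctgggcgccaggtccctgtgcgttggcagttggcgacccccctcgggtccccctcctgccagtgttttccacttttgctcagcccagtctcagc

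The other large falls that set Bcl6b knockdown apart had varied functions. Gamt, which encodes the enzyme for the last step of creatine synthesis, read 140, 135 and 158 in Bcl6b knockdown and 208, 234, 233 and 242 in control (log2 difference -0.67 ± 0.08; limma adjusted p 3.60e-04). Arl2bp, which encodes a partner of a small GTPase, averaged 927 ± 110 in Bcl6b knockdown and 1417 ± 185 in control (-0.61). Rab12, which encodes a small GTPase of membrane traffic, averaged 303 ± 45.7 in Bcl6b knockdown and 459 ± 11.5 in control (-0.61). Gna11, which encodes a G protein alpha subunit, averaged 813 ± 69.5 in Bcl6b knockdown and 1236 ± 49.8 in control (-0.61). In each of the 4 genes the 3 knockdown arrays lay below the 4 control arrays, and the direct differences from the other knockdowns ran between -0.64 and -0.44. On Bcl6b knockdown replicate 1 Gamt read 113, Rab12 327 and Gna11 1015, below all control arrays. Arl2bp read 1325 there, within the control range of 1179 to 1600. Other falls of this size did not differ the same way from both other knockdowns, among them Lmnb2, Adgra2, Ttll1, Orai3, Itga5 and Meak7. The dim gene Lmnb2, at -0.79 against control, read 21.9 to 30.0 in Bcl6b knockdown replicates 2 to 4 and 40.3 to 47.1 in control. It read 25.3 to 30.7 in Etv5 knockdown and 22.7 to 31.3 in Pou3f1 knockdown.

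**Figure D3:**
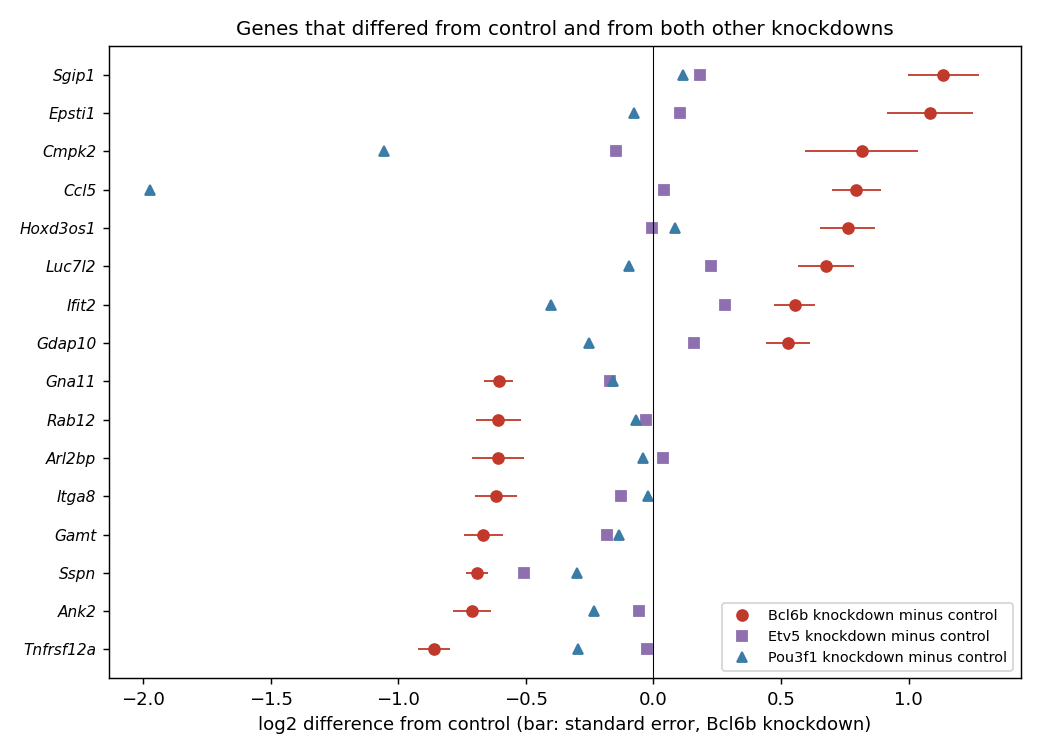
Log2 differences from control are drawn for the 8 largest named rises and the 8 largest named falls that also differed from both other knockdowns, with circles for Bcl6b knockdown (bar, SE; Sgip1 and Epsti1 passed the filter on dim genes only through the knockdown arrays), squares for Etv5 knockdown and triangles for Pou3f1 knockdown. Most squares and triangles lie near 0, with Sspn lower in all 3 knockdowns and Ccl5 and Cmpk2 far below 0 in Pou3f1 knockdown.

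Tnfrsf12a was among several falls in its gene family. Of 13 tested genes of the TNF receptor superfamily 4 fell (30.8%, beside 9.51% of all tested genes) and 1 rose (7.69%, beside 5.42%), with a median of -0.21 beside -0.04. Eda2r, which encodes a receptor for ectodysplasin A2 and is a known p53 target, read 1394, 1392 and 1340 in Bcl6b knockdown and 2033, 2010, 2027 and 1942 in control. The knockdown arrays lay well below the control arrays (-0.54 ± 0.03; limma adjusted p 7.34e-06), and the direct differences from both other knockdowns were -0.34. Ltbr, which encodes the lymphotoxin beta receptor, fell by 0.31 and Tnfrsf1a, which encodes the TNF receptor 1, by 0.30 on the log2 scale, with Etv5 and Pou3f1 knockdown means between those of Bcl6b knockdown and control. Fas, which encodes a death receptor, rose by 0.25. The 4 falls were called again when each of the 7 arrays was left out in turn.

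Within the actin cytoskeleton Cfl2 had the largest difference. Of 47 tested genes of actin filaments and of their regulator SRF 9 fell and 1 rose, beside falls in 9.51% of all tested genes, with a median of -0.05. The falls other than Cfl2 were small, such as the tropomyosin gene Tpm4 at -0.21 and the non-muscle myosin gene Myh10 at -0.17. With its probe sets averaged Myh10 differed by -0.02 and was not called (adjusted p 0.719). Rdx, which encodes radixin, a linker of actin to the membrane, rose, at 5023, 4227 and 4847 in Bcl6b knockdown and 3340, 3297, 3305 and 3378 in control (0.49 ± 0.05). Rdx averaged 4634 in Etv5 knockdown and 5273 in Pou3f1 knockdown. The other genes of the cofilin family, picked after their values were seen, were Cfl1, which differed by -0.03 and was not called, and Dstn, which fell by 0.12 on the log2 scale. The count of falls depended on single arrays, with 4 without Bcl6b knockdown replicate 2 or control replicate 2 and 5 without Bcl6b knockdown replicate 4 or control replicate 4.

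Among genes of creatine, GABA and polyamine metabolism 5 of 14 fell (35.7%, beside 9.51% of all tested genes) and 2 rose (14.3%, beside 5.42%). Beside Gamt, falls were called for Srm, which encodes spermidine synthase (-0.22), Glud1, which encodes glutamate dehydrogenase (-0.21), the dim GABA transaminase gene Abat (-0.56) and the creatine transporter gene Slc6a8 (-0.13). Glud1 also fell against both other knockdowns, by 0.15 on the log2 scale in each. The polyamine acetyltransferase gene Sat1 rose by 0.18 and the glutamine synthetase gene Glul by 0.14. Abat lost its call without Bcl6b knockdown replicate 2 (adjusted p 0.0694), and Slc6a8 and Glul did so when any of 5 arrays was left out.

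The G1 cyclin gene Ccnd1 fell in all 3 knockdowns and furthest in Bcl6b knockdown. Cyclin D1 drives entry into the cell cycle with CDK4 and CDK6 and responds to growth factors through the MAPK pathway. Its intensity was 3875, 4051 and 3812 on the Bcl6b knockdown arrays and 5996, 5607, 5663 and 5482 on the control arrays, a log2 difference of -0.54 ± 0.04 (limma adjusted p 1.14e-05). It averaged 4504 in Etv5 knockdown and 4471 in Pou3f1 knockdown, and Bcl6b knockdown was lower than these by -0.20 (adjusted p 0.00432) and -0.19 (adjusted p 0.00483). Its partner Cdk6 rose, at 1070, 1028 and 1063 in Bcl6b knockdown and 839, 750, 873 and 846 in control (0.35 ± 0.05), also against both other knockdowns. Of 23 tested G1 cyclins, kinases and inhibitors 3 fell (13.0%) and 1 rose (4.35%), shares near the 9.51% and 5.42% of all tested genes, the remaining falls being E2f1 at -0.20 and Cdk4 at -0.13, and 1 fall was left without Bcl6b knockdown replicate 4.

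Genes of DNA replication and of mitosis were counted next. Of 29 tested S phase genes 1 fell, the polymerase gene Pola1 at -0.25, and none rose. Of 29 tested G2 and M phase genes 2 fell, the cyclin gene Ccna2 at -0.19 and the topoisomerase gene Top2a at -0.12, and 1 rose, the kinase gene Nek2 at 0.15. These shares of falls, 3.45% and 6.9%, were below the 9.51% of all tested genes. With each array centred on its median over all probe sets, 15 members of each of these lists were called lower. The count of G2 and M phase falls was 4 without Bcl6b knockdown replicate 3 and 1 without replicate 2 or 4 or control replicates 2, 3 or 4, and Nek2 lost its call without any of 4 arrays. Top2a lost its call without any of 6 arrays, and it turned to 0.07 when all its probe sets were averaged.

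Of 24 tested genes of FGF and MAPK feedback and of the immediate early response 4 fell (16.7%, beside 9.51% of all tested genes) and none rose. Beside Ccnd1 they were 3 transcription factor genes. Fosl1 read 228, 203 and 205 in Bcl6b knockdown and 269, 314, 269 and 306 in control, a log2 difference of -0.45. Egr1 at -0.19 and Fos at -0.18 were near the threshold (adjusted p 0.0372 and 0.0415), and each lost its call when any of 6 of the 7 arrays was left out.

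The p53 pathway list held 5 falls (18.5%, beside 9.51% of all tested genes) and 1 rise (3.7%, beside 5.42%) among 27 tested genes. Eda2r was followed by the stress gene Sesn2 at -0.40, Ccng1 and Ei24 at -0.20 and Phlda3 at -0.19, and Fas rose. The cell cycle inhibitor gene Cdkn1a, a leading p53 target, differed by -0.11 without passing, a gene picked after its value was seen. The p53 list mean lay between -0.06 and -0.05 in Bcl6b knockdown replicates 2 to 4 and between -0.01 and 0.02 in control. It was as low in the other knockdowns, at -0.09 to -0.03 in Etv5 and -0.11 to -0.05 in Pou3f1 knockdown. In the Bcl2 family, which sets the balance of survival and death at mitochondria, 3 of 16 tested genes rose (18.8%, beside 5.42% of all tested genes) and 2 fell (12.5%, beside 9.51%). Bcl2, a survival gene, read 419, 428 and 413 in Bcl6b knockdown and 278, 305, 295 and 298 in control (0.51 ± 0.05, adjusted p 1.79e-04). Bnip3, a gene of mitochondrial autophagy, rose by 0.41 and Bcl2l11, which encodes the death-promoting protein BIM, by 0.20. The death effector gene Bak1 fell by 0.59 and the survival gene Bcl2l1 by 0.18 on the log2 scale. Bcl2 averaged 446 in Etv5 knockdown and 419 in Pou3f1 knockdown, and the direct differences from them did not pass the test (adjusted p 0.491 and 0.973). With probe sets averaged the differences from control were 0.19 for Bcl2 (adjusted p 0.0631) and -0.21 for Bak1 (adjusted p 0.223), neither of them called. Sesn2, Phlda3, Bcl2l11 and Bcl2l1 lost their calls when at least 1 of the 7 arrays was left out.

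**Figure D4:**
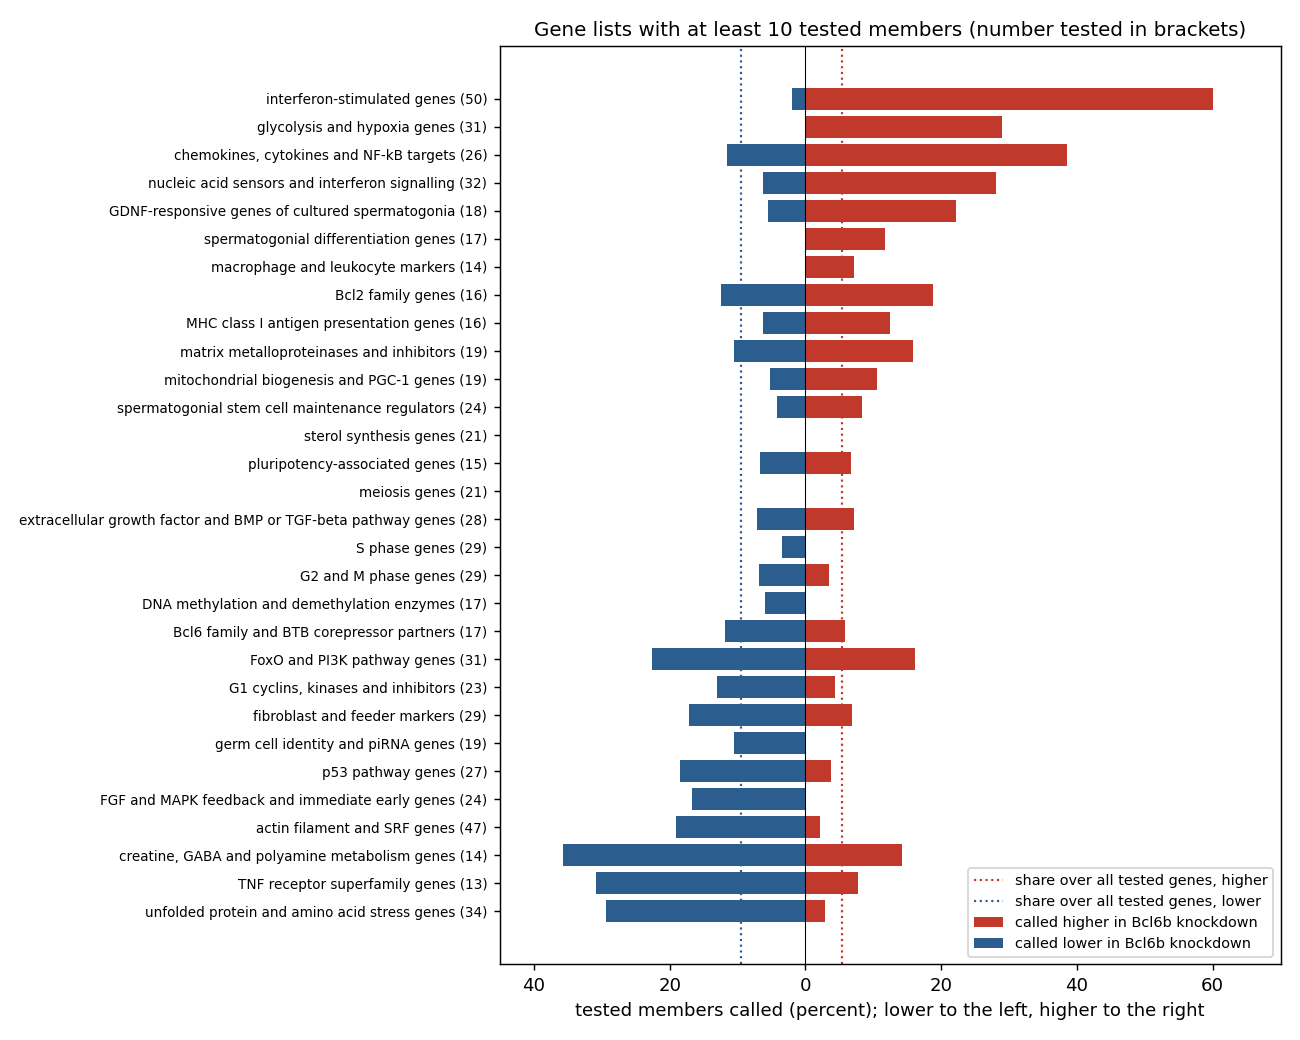
Bars give, for each gene list with at least 10 tested members, the percent of tested members called higher (to the right) and lower (to the left) in Bcl6b knockdown than in control, and dotted lines give the shares over all tested genes, 5.42% and 9.51%. The interferon-stimulated genes have the longest bar, at 60.0% higher, and the creatine, TNF receptor and unfolded protein lists reach furthest to the left.

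Interferon-stimulated genes, which cells switch on for antiviral defence, formed the list with the most rises. Of 50 tested members 30 rose (60.0% beside 5.42% of all tested genes) and 1 fell, Ifi27 at -0.18, and the median log2 difference was 0.31 beside -0.04. Oas1a, which encodes a sensor enzyme for double-stranded RNA, read 1407, 1419 and 1138 in Bcl6b knockdown and 788, 1049, 861 and 743 in control (0.62 ± 0.11; limma adjusted p 0.00404). Ifit2, which encodes an RNA-binding antiviral protein, read 2786, 2784 and 2333 in Bcl6b knockdown and 1642, 2015, 1876 and 1648 in control (0.55 ± 0.08, adjusted p 0.00132). The knockdown arrays of both genes lay above all control arrays. Gbp7, which encodes a guanylate-binding protein, averaged 2194 ± 321 in Bcl6b knockdown and 1530 ± 126 in control (0.51), and Oas2 averaged 524 ± 27.6 in Bcl6b knockdown and 388 ± 33.7 in control (0.44). Mx1, a gene for an antiviral GTPase, was the largest rise in the list, at 0.89 ± 0.16, with a mean of 186 ± 25.7 in Bcl6b knockdown and 102 ± 23.4 in control. Cmpk2, a nucleotide kinase gene, had a difference of 0.82 ± 0.22, but its 209, 138 and 92.7 in Bcl6b knockdown overlapped with its 73.4, 101, 75.8 and 67.7 in control.

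The list varied between arrays of 1 group as well as between groups. Its mean, set to 0 over the control arrays, was 0.40, 0.35 and 0.14 on Bcl6b knockdown replicates 2 to 4 and -0.06, 0.15, 0.04 and -0.13 on the control arrays, so that Bcl6b knockdown replicate 4 lay below control replicate 2. It was 0.11 on Bcl6b knockdown replicate 1. The mean was 0.003 to 0.21 in Etv5 knockdown and -0.66 to -0.38 in Pou3f1 knockdown. The groups did not overlap for 24 of the 50 genes (all 3 knockdown arrays lay above the 4 control arrays for 8.21% of all tested genes, and below them for 19.5%), and 4 genes, Ifit2, Oas2, Oas1b and Cmpk2, differed the same way from both other knockdowns. The number of rises was 13 without Bcl6b knockdown replicate 2, 14 without replicate 3, 18 without control replicate 1 and 19 without control replicate 4. When Bcl6b knockdown replicate 1 was added, none of the 50 passed in a fit of 8 arrays and 9 did in a fit of 16.

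**Figure D5:**
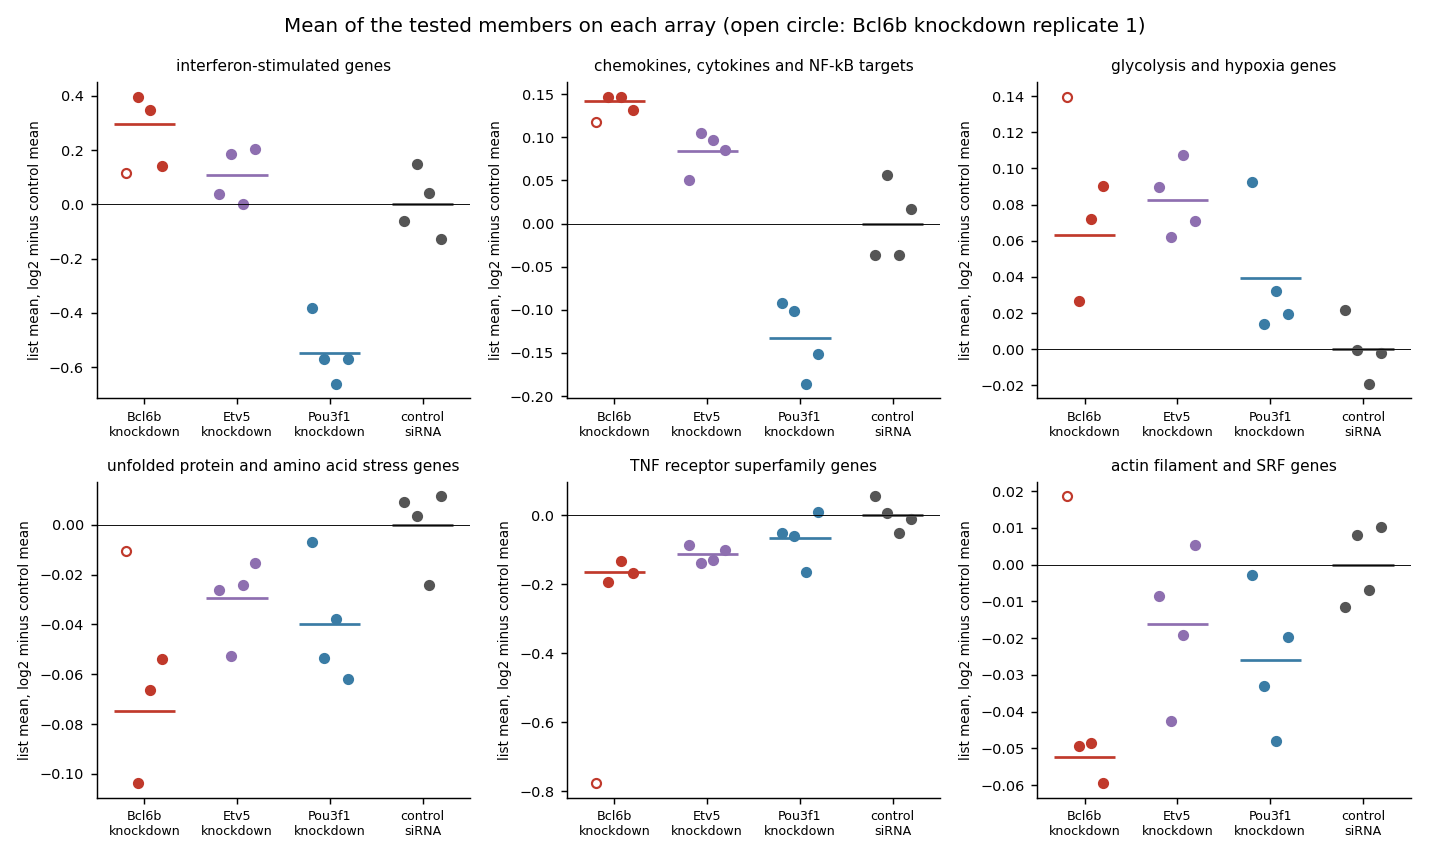
Points give, on each array, the mean over the tested members of 6 gene lists as log2 values minus the control mean, in Bcl6b, Etv5 and Pou3f1 knockdown and in control, with lines at the group means (Bcl6b knockdown replicate 1, an open circle, is not in the mean). The interferon-stimulated genes of Bcl6b knockdown overlap with control, whereas the chemokine, unfolded protein, TNF receptor and actin lists of Bcl6b knockdown replicates 2 to 4 do not.

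Upstream windows of 250 bases were searched on both strands for a pair of GAAA separated by any 2 bases, the core of the interferon-stimulated response element that IRF factors bind. Counted by gene as before, it occurred in 3.46% of 27025 genes with a listed promoter and in 3.08% of 9026 tested genes. It occurred in 5.33% of 488 genes that rose and in 2.22% of 857 that fell. Among interferon-stimulated genes with a promoter in the table it occurred in 8 of 23 that rose (34.8%) and in 14 of 38 tested (36.8%), so that its share was no higher among the members that rose. The BCL6-type letters occurred in 5 of the 23 that rose (21.7%) and in 5 of the 38 tested (13.2%). The windows below are those of 3 genes just described, with matches in capitals. Oas1a lies at chr5:120907526-120907775 on the minus strand and holds a pair of overlapping response elements that run from base 20 to base 5 before the start. Gbp7 lies at chr3:142530086-142530335 on the plus strand, with a response element in reverse, and also 1 BCL6-type match left in lower case. Ifit2 lies at chr19:34550444-34550693 on the plus strand, upstream of 1 of 2 listed start sites, and holds a BCL6-type match.
Oas1a: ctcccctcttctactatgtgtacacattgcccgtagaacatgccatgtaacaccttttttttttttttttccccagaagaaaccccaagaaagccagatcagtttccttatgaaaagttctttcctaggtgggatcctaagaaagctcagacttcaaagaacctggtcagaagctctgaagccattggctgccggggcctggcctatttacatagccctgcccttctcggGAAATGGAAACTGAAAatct
Gbp7: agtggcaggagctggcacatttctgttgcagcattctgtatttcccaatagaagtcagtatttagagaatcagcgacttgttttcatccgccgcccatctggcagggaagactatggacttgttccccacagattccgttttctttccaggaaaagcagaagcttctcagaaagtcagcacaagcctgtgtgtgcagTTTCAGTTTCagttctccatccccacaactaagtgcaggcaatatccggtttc
Ifit2: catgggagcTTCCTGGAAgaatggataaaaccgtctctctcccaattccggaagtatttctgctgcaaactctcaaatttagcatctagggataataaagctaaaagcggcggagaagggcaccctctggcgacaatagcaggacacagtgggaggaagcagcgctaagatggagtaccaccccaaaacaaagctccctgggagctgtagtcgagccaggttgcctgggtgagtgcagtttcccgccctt

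The sensors and signalling proteins upstream of these genes held both rises and falls. Of 32 tested members 9 rose (28.1%, beside 5.42% of all tested genes) and 2 fell, and 6 members also stood in the list of interferon-stimulated genes. Irf7, which encodes the transcription factor that amplifies the interferon response, read 164, 172 and 135 in Bcl6b knockdown and 102, 118, 113 and 93.1 in control (0.55 ± 0.10). Ifih1, which encodes the RNA sensor MDA5, averaged 1010 ± 148 in Bcl6b knockdown and 684 ± 91.7 in control (0.56), and Zbp1 and Irf9 rose by 0.51 and 0.32. For these 4 genes the direct difference from Pou3f1 knockdown passed the test, at 0.61 to 1.37, and that from Etv5 knockdown did not, at 0.18 to 0.32. With its probe sets averaged Zbp1 differed from control by 0.44 and was not called (adjusted p 0.0777). The 2 falls were Ifngr2, a chain of the interferon gamma receptor, at -0.39, also lower than in both other knockdowns, and the kinase gene Jak1 at -0.11. The count of rises was 4 without Bcl6b knockdown replicate 2 or 3 and 5 without control replicate 2.

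Chemokines, cytokines and NF-kB targets held 10 rises (38.5%, beside 5.42% of all tested genes) and 3 falls (11.5%, beside 9.51%) among 26 tested genes. Ccl5, which encodes a chemokine that attracts leukocytes, read 138, 133 and 125 on Bcl6b knockdown replicates 2 to 4 and 284 on replicate 1, against 90.0, 69.2, 73.8 and 71.0 in control. All Bcl6b knockdown arrays lay above all control arrays (0.79 ± 0.10; limma adjusted p 4.19e-04), and Etv5 and Pou3f1 knockdown averaged 78.2 and 18.9. Ccl9 rose by 0.47 and Cxcl5 by 0.43, with Etv5 and Pou3f1 knockdown close to Bcl6b knockdown: Ccl9 averaged 1441 in Bcl6b, 1371 in Etv5 and 1425 in Pou3f1 knockdown and 1040 in control. Vcam1, which encodes an adhesion protein, fell, at 8713, 8748 and 8644 in Bcl6b knockdown and 10618, 11256, 10707 and 10909 in control (-0.32 ± 0.03). The list mean lay between 0.13 and 0.15 in Bcl6b knockdown replicates 2 to 4 and between -0.04 and 0.06 in control, without overlap.

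Antigen presentation by MHC class I is a common companion of interferon responses. Of 16 tested members 2 rose (12.5%, beside 5.42% of all tested genes) and 1 fell, and 5 rose without control replicate 2. Nlrc5, the transcriptional activator of MHC class I genes, rose by 0.40, B2m, the light chain, by 0.12, and the chaperone gene Calr fell by 0.13 on the log2 scale. B2m lost its call (adjusted p 0.316) when arrays were centred on their median over all probe sets, and Calr lost its call without Bcl6b knockdown replicate 2 (adjusted p 0.0527).

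Glycolysis and hypoxia genes rose in 9 of 31 tested members (29.0%, beside 5.42% of all tested genes) and none fell, with a median of 0.06. Bnip3 read 2983, 2939 and 3034 in Bcl6b knockdown and 2204, 2256, 2182 and 2357 in control (0.41 ± 0.04; limma adjusted p 6.00e-05). Pdk1, which encodes a kinase that holds pyruvate back from mitochondria, rose by 0.31, the enolase gene Eno2 by 0.29 and Hif1a, which encodes the oxygen-regulated transcription factor, by 0.21. None of the 31 differed the same way from both other knockdowns; Bnip3 averaged 3169 in Etv5 and 2777 in Pou3f1 knockdown. The list mean lay between 0.03 and 0.09 in Bcl6b knockdown, 0.06 and 0.11 in Etv5 knockdown, 0.01 and 0.09 in Pou3f1 knockdown, and -0.02 and 0.02 in control, so Bcl6b knockdown and control did not overlap. The count of rises was 5 without Bcl6b knockdown replicate 3 and 4 with arrays centred on their median over all probe sets.

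Unfolded protein and amino acid stress genes fell in 10 of 34 tested members (29.4%, beside 9.51% of all tested genes), and 1 rose (2.94%, beside 5.42%). Impact, which encodes an inhibitor of the amino acid sensing kinase GCN2, read 1974, 2067 and 2277 in Bcl6b knockdown and 2994, 3185, 3231 and 3074 in control (-0.57 ± 0.05; limma adjusted p 5.74e-05), and averaged 3097 in Etv5 and 3118 in Pou3f1 knockdown. It differed the same way from both other knockdowns, by -0.56 and -0.57. A dimmer probe set of Impact averaged 162 in Bcl6b knockdown and 138 in control (0.24), and with probe sets averaged the difference was -0.11 and not called (adjusted p 0.0763). The alanyl-tRNA synthetase gene Aars fell by 0.23 and the serine synthesis gene Psat1 by 0.18, while Ern1, which encodes the stress sensor IRE1, rose by 0.34 on the log2 scale. With its probe sets averaged Psat1 differed by -0.08 and was not called (adjusted p 0.157). The list mean lay between -0.10 and -0.05 in Bcl6b knockdown replicates 2 to 4 and between -0.02 and 0.01 in control. The count of falls was 4 without Bcl6b knockdown replicate 2, 6 without replicate 3, 5 without replicate 4 or control replicate 1, and 6 without control replicate 4. It was 4 with arrays centred on the tested genes, 15 with arrays centred on their median over all probe sets, and 3 with the replicate number as a block.

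The FoxO and PI3K pathway list moved both ways, with 5 rises (16.1%, beside 5.42% of all tested genes) and 7 falls (22.6%, beside 9.51%) among 31 tested genes. Ccng2, a FoxO target gene for an unconventional cyclin, read 3497, 3539 and 3673 in Bcl6b knockdown and 2404, 2239, 2230 and 2419 in control (0.62 ± 0.04; limma adjusted p 7.34e-06), with 3482 in Etv5 and 3524 in Pou3f1 knockdown. Pik3ip1, which encodes an inhibitor of PI3 kinase, rose by 0.41 and the PI3 kinase subunit gene Pik3r2 by 0.25, and the sestrin gene Sesn3 fell by 0.21 on the log2 scale. The count of falls was 2 without Bcl6b knockdown replicate 2, 4 without replicate 4 and 3 without control replicate 2. Of 19 tested genes of mitochondrial biogenesis 2 rose and 1 fell. Ppargc1a, which encodes the coactivator PGC-1 alpha, read 703, 556 and 610 in Bcl6b knockdown and 393, 379, 346 and 400 in control (0.71 ± 0.08), and averaged 626 in Etv5 and 584 in Pou3f1 knockdown. Sirt3 rose by 0.26, and Cpt1a, which encodes the enzyme that admits fatty acids to mitochondria, fell by 0.27.

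Several of the largest rises against control were of the same order in the other knockdowns, which were compared with the same control arrays. Exoc4, which encodes a subunit of the exocyst, read 3292, 2864 and 3131 in Bcl6b knockdown and 1424, 1443, 1547 and 1520 in control (1.06 ± 0.05; limma adjusted p 9.53e-07), and its difference from control was 1.11 in Etv5 and 1.17 in Pou3f1 knockdown. Tcfl5, which encodes a transcription factor of the testis, read 2918, 2813 and 2919 in Bcl6b knockdown and 1653, 1578, 1603 and 1624 in control (0.84 ± 0.03), with means of 3005 in Etv5 and 3022 in Pou3f1 knockdown. Phex, which encodes a membrane endopeptidase, averaged 275 ± 8.6 in Bcl6b knockdown, 251 in Etv5 knockdown, 254 in Pou3f1 knockdown and 123 ± 25.4 in control (1.18). For these 3 genes the direct differences from either other knockdown did not pass the test, with adjusted p between 0.299 and 0.736. Of the other named rises, Tk2, a mitochondrial thymidine kinase gene, rose by 0.80, the collagenase gene Mmp13 by 0.86 and the Wnt co-receptor gene Lrp5 by 0.87, the last losing its call without any of 4 arrays. Tk2 and Mmp13 were above control in the other knockdowns too. Tk2 read 373 to 457 in Bcl6b knockdown replicates 2 to 4 and 239 to 241 in control. It read 358 to 409 in Etv5 and 355 to 400 in Pou3f1 knockdown. Mmp13 read 73.7 to 97.9 in Bcl6b, 65.3 to 92.7 in Etv5 and 57.5 to 67.3 in Pou3f1 knockdown, and 40.3 to 51.0 in control. Asph, which encodes a hydroxylase, gave 0.76 and 0.59 on 2 probe sets and -0.34 on another, so that its direction depended on the probe set. On the first of these it read 1143 to 1212 in Bcl6b knockdown replicates 2 to 4 and 661 to 726 in control. It read 1177 to 1307 in Etv5 knockdown and 1131 to 1256 in Pou3f1 knockdown. Ankrd29 rose by 0.80 against control but was lower than in Etv5 and Pou3f1 knockdown, by -0.51 and -0.59.

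Sgip1 and Epsti1 lay below the array median on all 4 control arrays and passed the filter on dim genes only through the 3 knockdown arrays, so that they had to differ, and their values are a description. Sgip1, which encodes an endocytic adaptor, read 26.2, 27.5 and 22.4 in Bcl6b knockdown and 10.9, 8.78, 14.3 and 10.5 in control (log2 difference 1.14), and Epsti1, an interferon-inducible gene, read 34.7, 20.9 and 28.2 in Bcl6b knockdown and 9.34, 13.5, 13.4 and 13.8 in control (1.08). At such dim levels a log2 difference of intensity plus 1 understates a change. Epsti1 read 7.91 on Bcl6b knockdown replicate 1, below all 4 control arrays. Brighter genes that rose against control and both other knockdowns included Luc7l2 and Hoxd3os1. Luc7l2, a splicing factor gene, averaged 3650 ± 145 in Bcl6b knockdown and 2315 ± 442 in control (0.67). The noncoding gene Hoxd3os1 averaged 124 ± 12.3 in Bcl6b knockdown and 72.9 ± 9.5 in control (0.76). On Bcl6b knockdown replicate 1 Luc7l2 read 1443, below all control arrays (1957 to 2921). Hoxd3os1 read 153 there, above all its control arrays. The other 7 probe sets of Luc7l2 ran between -0.00405 and 0.82, among them 0.82 on the next brightest in Bcl6b knockdown and 0.24 on the next brightest in control.

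Of 24 tested regulators of spermatogonial stem cell maintenance, Bcl6b left out, 2 rose (8.33%, beside 5.42% of all tested genes) and 1 fell (4.17%, beside 9.51%), with a median of 0.03. The rises were Ret and Etv5, and 1 of them was left without Bcl6b knockdown replicate 2 or 3 or control replicate 1. Ret, which encodes the GDNF receptor kinase, read 883, 855 and 874 in Bcl6b knockdown and 697, 721, 727 and 691 in control (0.30 ± 0.04; limma adjusted p 0.00111), with no overlap, and averaged 705 in Etv5 and 925 in Pou3f1 knockdown. A second probe set of Ret averaged 556 in Bcl6b knockdown and 623 in control (-0.17), and with probe sets averaged the difference was 0.06 and not called (adjusted p 0.355). Etv5 rose by 0.15 (adjusted p 0.0212), a call lost without any of 4 arrays, and the surface marker gene Thy1 fell by 0.25. The co-receptor gene Gfra1 differed by 0.03 (adjusted p 0.597), Id4 by 0.10 (adjusted p 0.132) and Zbtb16 by 0.11 (adjusted p 0.107), none of which passed. Of 18 tested GDNF-responsive genes 4 rose, among them Ccl9 and the connexin gene Gja1 at 0.28, and Sema7a fell, by 0.40 on the log2 scale. The count of these rises was 2 without Bcl6b knockdown replicate 2 or 3 or control replicate 1, and that of falls was 3 without Bcl6b knockdown replicate 3.

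Of 17 tested genes of spermatogonial differentiation 2 rose, Kit, the receptor of differentiating spermatogonia, by 0.18 and Stk31 by 0.15, and none fell. Both calls were lost when most single arrays were left out, and Kit turned to -0.03 when its probe sets were averaged. None of 21 tested meiosis genes and none of 21 sterol synthesis genes was called by limma, with 4 and 3 at an unadjusted p under 0.05. Of 19 germ cell identity and piRNA genes Tex101 fell by 0.19 and Dazl by 0.09 on the log2 scale, and of 15 pluripotency-associated genes Tcl1, a cofactor of AKT kinases, rose by 0.52 and Klf5 fell by 0.34. Dazl lost its call when any of 6 arrays was left out, with 0.02 on its second probe set, and Klf5 lost its call without any of 3 arrays.

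Of 17 tested members of the Bcl6 family and its BTB corepressor partners, Bcl6b left out, 1 rose and 2 fell. Gps2, a subunit of the NCoR complex, rose by 0.27, and the corepressor gene Ctbp1 and the deacetylase gene Hdac1 fell by 0.13 and 0.12 on the log2 scale. Both falls were lost without Bcl6b knockdown replicate 2 or control replicate 1, among other arrays. Of 28 tested extracellular growth factor, BMP and TGF-beta pathway genes 2 rose and 2 fell. Acvr2a, which encodes an activin receptor, read 276, 261 and 253 in Bcl6b knockdown and 352, 337, 370 and 328 in control (-0.39 ± 0.06) and was also lower than in both other knockdowns. A second probe set of Acvr2a averaged 218 in Bcl6b knockdown and 190.2 in control (0.20), and with probe sets averaged the difference was -0.10 and not called (adjusted p 0.0868). The BMP receptor gene Bmpr1a fell by 0.20, a call also lost with probe sets averaged (adjusted p 0.112). Among matrix metalloproteinases and inhibitors 3 of 19 rose and 2 fell; Timp3, an inhibitor gene, averaged 5015 ± 115 in Bcl6b knockdown and 5881 ± 260.5 in control (-0.23) and was lower than in both other knockdowns.

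Markers of other cells that the cultures could hold were measured beside these results. Of 29 tested fibroblast and feeder markers 2 rose and 5 fell, and 3 fell without Bcl6b knockdown replicate 2 or 4 or control replicate 2. Vim, an intermediate filament gene, rose by 0.31 and Pdgfrb by 0.30, and Col6a3, Thy1, Lox, Sparc and Col1a1 fell by 0.11 to 0.25 on the log2 scale. Col1a1 lost its call without any of 6 arrays and Sparc without any of 4, and Pdgfrb lost its call with probe sets averaged (adjusted p 0.0581). The summed intensity of that list lay between 282367 and 289789 in Bcl6b knockdown and between 282152 and 284248 in control. Of 14 tested macrophage and leukocyte markers 1, the complement regulator gene Cfp, rose by 0.71, and the sums overlapped, at 2229 to 2373 in Bcl6b knockdown and 2117 to 2409 in control. Of the defining leukocyte markers, Adgre1, Itgam, Cd163 and Cd3e were too dim to be tested. Of 6 tested Sertoli cell markers Clu rose by 0.13 and Rhox5 fell by 0.14, of 5 Leydig and peritubular markers Star fell by 0.21 on the log2 scale, and of 5 endothelial markers none was called by limma or had an unadjusted p under 0.05. The part of these cells in the interferon and chemokine values was not tested.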

How the data were processed

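RNA from cultured mouse spermatogonial stem cells was taken up in Trizol, treated with DNase and copied to cDNA from an oligo(dT) primer, per the labels' protocols. What the authors deposited is 1 linear intensity per probe set and array, between 1.66 and 71511. The submitters' processing notes list Affymetrix Expression Console 1.1, Partek 6.4, MAS5 and GCRMA. The sources used here do not give which of these made the intensities or how arrays were normalized to each other.

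GEO's platform annotation gave 1 gene for 34945 of 45037 non-control probe sets, several genes for 932 and none for 9160; only the first kind was named. For each of 18194 genes the probe set with the highest mean over the 7 arrays stood for the gene. Tested were the 11073 genes for which 3 or more of the 7 arrays exceeded their own median. This filter can pass a gene through the group where it is high. Values were analysed as log2 of intensity plus 1. The comparison used limma 3.58.1 under R 4.3.3 (lmFit, eBayes with an intensity trend, two-sided, Benjamini-Hochberg over all tested genes, called at an adjusted p under 0.05). Direct contrasts with the other knockdowns came from a fit of 15 arrays. The number of arrays limits the precision, and the median residual SD was 0.0698.

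The comparison, its members and the 33 gene lists were chosen with earlier results of these data known, so list counts carry no test. Named are Bcl6b, Tnfrsf12a and Cfl2, the 15 largest called rises and falls with separated groups, the 8 largest of each that also differed from both other knockdowns, and up to 4 called members of each list by p (all where a list has 8 or fewer). Where none was called, the 2 members with the smallest p may be named. Clone names were left out, and genes named beyond this rule were chosen after their values were seen. Alternatives were 3 further scalings, a pseudocount of 16, other filters and probe set choices, array weights, no intensity trend, larger fits, the replicate number as a block and each array left out. The centring on tested genes was chosen after seeing the data. Promoters came from RefSeq on GRCm38.p6. The procedure was tested on simulated data. Python 3.11.15 with matplotlib 3.10.9 drew the figures.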

Additional observations from a re-analysis of the deposited data

Results flagged for a closer look

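On 3 quality measures Bcl6b knockdown replicate 1 lay far from the other Bcl6b knockdown arrays. Its gap to the nearest of them, as a share of the range of the 4 arrays, was 0.957 for the 3' to 5' difference of Gapdh, 0.975 for that of Actb and 0.986 for the mean correlation with other arrays, above Dixon's critical value for 4 values. The Actb difference was 3.08 there, and between 0.62 and 0.76 on the 15 others, and the mean correlation was 0.972, beside 0.997 on each of those. Of 137 named genes 5 had an outlying control array, 3.65%, and chance flags about 1 in 20 groups. The shares were 0.93 for Epsti1 and 0.946 for Tk2, both low on control replicate 1, and 0.834 for Glul, 0.925 for Smc3 and 0.847 for Rhox5, with control replicate 4 standing apart.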

How the results depend on the processing

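Bcl6b fell under every setting that was run, by -1.13 to -0.945 on the log2 scale. Other counts depended on the setting, and the cause was not tested. Against 600 rises, 1053 falls and 128 genes that also differed from both other knockdowns, centring each array on its median over all probe sets gave 347, 3929 and 474. Array weights gave 219 of the last kind. No filter on dim genes, which tests more genes, gave 673 falls, no intensity trend gave 690, and centring on the tested genes gave 624. With Bcl6b knockdown replicate 1 added, the counts were 36, 27 and 20 in 8 arrays and 183, 180 and 48 in 16. Leaving out each array in turn, which leaves fewer samples, gave 405 to 512 rises, 525 to 913 falls and 70 to 116 of the last kind, lowest without Bcl6b knockdown replicate 2, and Bcl6b stayed between -1.13 and -0.945. As a replicate block, the shared numbers gave 351 rises and 450 falls. Deviations of same-numbered arrays correlated at -0.0831 to 0.0243 and no array correlated best with its own number, so the numbers were not taken to pair arrays. Of 2854 values of the other 136 named genes under alternatives 2316 kept direction and side of the threshold, 519 lost the call, 7 gained it and 12 changed sign. Sign changes came from averaging probe sets for Top2a (0.0738) and Kit (-0.0258). With replicate 1 added they came for Bcl2l1 (0.0903), Slc6a8 (0.0239), Pik3ip1 (-0.371), Etv5 (-0.0991) and Kit (-0.059).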

Other observations

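A further set of interferon-inducible genes, of the Trim and PYHIN families and of nuclear bodies, was looked up after the interferon values were seen and gets no test. Of 17 tested members 12 were called higher in Bcl6b knockdown and none lower, with a median of 0.42. Of all tested genes 5.42% were called higher and 9.51% lower. Among the 12 was Epsti1, which passed the filter on dim genes only through the knockdown arrays and so had to differ. Trim34a averaged 744 in Bcl6b knockdown and 497 in control, and Sp100 124 in Bcl6b knockdown and 81.4 in control. Ifi202b, the brightest member, had means of 17990 in Bcl6b knockdown and 15714 in control (0.19 on the log2 scale).

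Among 13 tested integrin genes 1 was called higher, Itgb8 at 0.64, and 2 lower, Itga5 at -0.64 and Itga8 at -0.62. The chains best known from spermatogonial stem cells, Itga6 and Itgb1, differed by 0.01 and -0.02 and were not called. Of 33 tested NADH dehydrogenase subunit genes 7 were lower and none higher, of 38 proteasome subunit genes 8 were lower and none higher, and of 44 cytoplasmic ribosomal protein genes 3 were higher and none lower. Their medians were -0.04, -0.07 and -0.01, beside -0.04 for all tested genes. Of all tested genes 9.51% were called lower and 5.42% higher. The 1053 falls over all tested genes became 624 with arrays centred on the tested genes and 3929 with arrays centred on all probe sets. The integrin, NADH dehydrogenase, proteasome and ribosomal lists too were chosen after seeing the data.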
